A study of Mus musculus with 6 samples.

Results

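Expression of 10 heat shock genes was examined in MLL-AF9 leukemia cells taken from mice after a single dose of DS-5272 or of vehicle. The 10 genes were taken by name from a table of 26082 gene names, and they comprise the heat shock transcription factor Hsf1, the cytosolic chaperones Hspa1a, Hspa1b, Hspa8, Hsph1, Hsp90aa1 and Hsp90ab1, the cochaperone Dnajb1, and the mitochondrial pair Hspd1 and Hspe1. Each of the 10 had 1 line of its own, so no values had to be summed. Levels are given in FPKM, the fragments of a gene scaled to transcript length and to the size of the library. Of the 10 genes, 8 averaged 1 FPKM or more over the 6 samples and entered the test, while Hspa1a and Hspa1b lay under this limit and are described by their levels.

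RNA-Seq was performed on bone marrow leukemia cells isolated with a cell sorter. Both groups carried the same leukemia: c-Kit+ bone marrow progenitors of wild-type mice were transduced with a retrovirus that expresses the MLL-AF9 fusion oncogene together with GFP, and the leukemia cells were passed through serial transplants in mice labelled C57BL/6J. Per the methods, leukemia cells of this kind were given to recipients without irradiation, which keep marrow cells of their own. The vehicle group (n = 3) received the solvent, and the DS-5272 group (n = 3) received DS-5272, an inhibitor of the binding of MDM2 to p53, orally at 80 mg/kg, 24 h before the cells were collected. The fusion gene is driven by the virus in place of its own locus, and neither the labels nor the methods tie a sample to more than a treatment and a replicate number, so p-values measure the spread between these samples only.

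Heat shock proteins are chaperones: they bind unfolded proteins, help new proteins to fold and keep damaged ones from clumping. HSP70 proteins take up substrates with the help of J-domain proteins such as Dnajb1 and release them with the help of exchange factors such as Hsph1, HSP90 proteins mature kinases and receptors, and the HSP60 and HSP10 chaperonin folds proteins inside mitochondria. When unfolded proteins accumulate, the transcription factor HSF1 forms trimers, binds heat shock elements made of inverted GAA and TTC units in promoters and raises transcription of several of these genes, while Hspa8 and Hsp90ab1 are also made at high levels without stress.

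Libraries differed in ways that touch the values below. Relative depth, read from the steps between low FPKM values and set to 1 in vehicle replicate 1, was 0.807 to 1 in the vehicle samples and 0.54 to 0.745 in the DS-5272 samples, so depth and treatment cannot be told apart. The 15 immediate early genes of a fixed list, such as Fos and Jun, summed to 368.4 FPKM in vehicle replicate 1 against 4634 and 4924 in vehicle replicates 2 and 3, and to 1417 FPKM in DS-5272 replicate 1 against 7790 and 10130 in DS-5272 replicates 2 and 3. Replicate 1 of both groups therefore stands apart, and results are also given without these samples. Markers of bone marrow macrophages (11 genes) summed to 73.74 to 135.6 FPKM in the vehicle samples and to 617, 140.9 and 179.1 FPKM in DS-5272 replicates 1, 2 and 3, and erythroid markers (6 genes) summed to 1.937 to 3.857 FPKM in vehicle and to 91.53, 16.9 and 8.283 FPKM with DS-5272. The erythroid sum after treatment came mostly from Hba-a1 alone, which ranged from 7.066 to 84.18 FPKM there and from 0.5976 to 2.387 FPKM in vehicle. Among the 6 erythroid genes, 4 never reached 1 FPKM. Klf1 had a lower mean with DS-5272 (0.118 against 0.327 FPKM), while the other erythroid genes had higher means. Stromal and endothelial markers (7 genes) summed to 29.05 to 59.99 FPKM in vehicle against 73.4 to 112.3 FPKM with DS-5272. Most of this was 1 gene, Pecam1, at 26.41 to 58.78 against 68.26 to 109.1 FPKM. Of the 7 genes, 5 were under 1 FPKM in every sample. Megakaryocyte markers (5 genes) summed to 2.617 to 2.907 FPKM in vehicle against 4.958 to 8.187 FPKM with DS-5272. B cell markers reached at most 5.362 FPKM, T cell markers 4.787 FPKM and NK cell markers 3.668 FPKM in any sample, and 0 markers of these lists were at 0 in every sample. The 7 markers of myeloid leukemia cells summed to 2143, 2339 and 2866 FPKM in vehicle and to 1131, 1359 and 1659 FPKM with DS-5272, with Elane at 1579 to 2128 FPKM in vehicle and at 210.0 to 411.2 FPKM with DS-5272, so myeloid markers were detected in every sample. These markers went both ways: 2 of the 7 tested were higher (Itgam from 168 to 754 FPKM and Ptprc from 75.7 to 175 FPKM in the group means) and 3 were lower, among them Elane, which carries most of the sum in vehicle. The part of these differences in the results was not tested. In bulk samples, fewer cells of a type and less RNA per cell cannot be told apart.

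With DS-5272, 0 of the 8 tested heat shock genes were called higher, also at an unadjusted p under 0.05 in limma, and 3 fell: the HSP90 genes Hsp90aa1 and Hsp90ab1 and the mitochondrial chaperonin gene Hspd1. Hsf1 and Hspe1 were lower in every DS-5272 sample than in every vehicle sample but did not pass the threshold. Hspa8, Dnajb1 and Hsph1 overlapped between the groups, and Hspa1a and Hspa1b stayed under 1 FPKM in all 6 samples. Calls were made with limma on log2(FPKM + 1) over 11130 genes at an adjusted p of 0.05, and 24.2% of all tested genes were called higher and 22.0% lower. The 3 of 8 lower calls stand against that 22.0%, and the 5 of 8 genes that were lower without overlap stand against 29.7% of all tested genes. No heat shock gene was higher without overlap, against 32.1% of all tested genes. The median log2 fold change of the 8 genes was −0.39, and that of all tested genes was 0.04. Rescaling to a common total (TPM) moved the median of all genes to −0.20 and their calls from 2697 higher and 2451 lower to 1706 higher and 3564 lower, with 0 higher and 4 lower among the heat shock genes. Leaving out vehicle replicate 1, 2 or 3 left 0 calls among the 8 genes, and leaving out replicate 1 of both groups, an alternative chosen after seeing the data, left 1.

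The genes differed in level over more than 4 orders of magnitude. Averaged over the 6 samples, Hspa8 had 1433 FPKM and was the 36th most abundant gene, and Hsp90ab1 had 905.7 FPKM and was the 91st. Hsp90aa1 followed with 311.0 FPKM, Hspd1 with 113.0 FPKM, Hspe1 with 88.42 FPKM, Dnajb1 with 35.47 FPKM, Hsph1 with 16.74 FPKM and Hsf1 with 16.41 FPKM. Hspa1b had 0.628 FPKM and Hspa1a 0.0696 FPKM. FPKM values are scaled to transcript length, so these levels can be set side by side. In this order Hspd1 and Hspe1, Dnajb1 and Hsph1, and Hsph1 and Hsf1 overlapped in their ranges over the samples, and the other neighbours did not. Hspa8 made up 49.1%, Hsp90ab1 31.0% and Hsp90aa1 10.6% of the mean sum of the 10 genes.

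**Figure D1:**
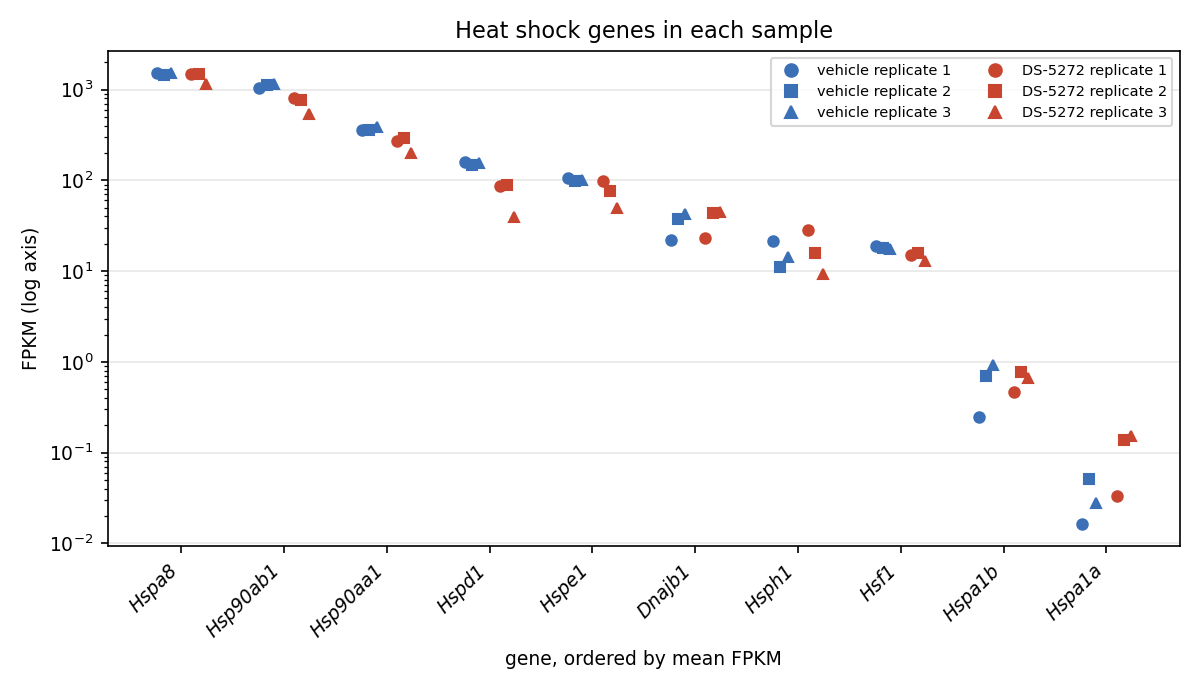
FPKM of the 10 heat shock genes in each sample on a log axis, with genes ordered by mean level, vehicle samples in blue, DS-5272 samples in red and the replicate number as the symbol. Hspd1 lies at 149.4 to 157.7 FPKM in vehicle and at 39.75 to 88.71 FPKM with DS-5272, while for Dnajb1 replicate 1 of both groups, at 21.84 and 23.09 FPKM, lies below the other samples.

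Together the 10 genes summed to 3243.76, 3249.61 and 3373.35 FPKM in vehicle replicates 1 to 3 and to 2818.59, 2783.17 and 2054.51 FPKM in DS-5272 replicates 1 to 3. As a share of all FPKM of the sample, this was 0.728%, 0.660% and 0.673% in vehicle and 0.565%, 0.480% and 0.311% with DS-5272. Both the sum and the share were lower in all 3 DS-5272 samples, and DS-5272 replicate 3, the sample of lowest relative depth, was the lowest.

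Hsf1 encodes the transcription factor that drives the heat shock response, and the gene lies at chr15:76477422-76501913 (GRCm38, plus strand). Its level was 19.04, 18.03 and 17.47 FPKM in the vehicle samples and 15.1, 15.9 and 12.9 FPKM in the DS-5272 samples. All DS-5272 samples were below all vehicle samples, with means of 18.2 ± 0.794 and 14.6 ± 1.55 FPKM (SD, n = 3 each). The log2 fold change was −0.30 (SE 0.11, 95% interval −0.56 to −0.04), and the limma adjusted p over all genes was 0.059. Rescaled to a common total the value was −0.55 (limma adjusted p = 0.0413), and over all alternatives the adjusted p ranged from 0.0413 to 0.16.

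Hspa1a and Hspa1b encode the stress-inducible HSP70 and are classical targets of HSF1. They lie on the minus strand of chromosome 17, Hspa1b at chr17:34956436-34959238 and Hspa1a at chr17:34969190-34972156, with 9952 bases between them, and each has a single exon. Their coding sequences differ at 8 of 1923 aligned bases (99.6% identity), and 47.1% of the 100-base windows of the Hspa1a transcript also occur in that of Hspa1b. How fragments were divided between the copies is therefore uncertain, and an exon of Hspa1a also overlaps Gm20481 on the other strand.

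The heat shock elements of those genes for which a RefSeq promoter window of GRCm38.p6 was at hand (250 bases before to 50 after the start) are shown here because HSF1, the product of a gene of this list, binds such units. Both 2-unit forms, GAANNTTC and TTCNNGAA, were searched; each reads the same on both strands and overlapping matches were allowed. A match was found in 15.1% of 32851 windows (7.86% for the first and 8.52% for the second form), and 3 alternating units in 0.603%. Windows were matched for 6 of the 10 genes, of which 5 held 2 units and 3 held 3 units, while Hsf1, Hsp90aa1, Hsp90ab1 and Hspa8 were not matched. The stretches below run 5′ to 3′ on the strand of the gene with the motif units in capitals, and the windows of Hspa1a and Hspa1b, which differ at 4 of 300 bases, share the stretch shown.
Hspa1b, chr17:34959309-34959368, minus strand, 130 to 71 bases before the start: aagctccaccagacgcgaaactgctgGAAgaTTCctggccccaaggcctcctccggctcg
Hspa1a, chr17:34972227-34972286, minus strand, 130 to 71 bases before the start: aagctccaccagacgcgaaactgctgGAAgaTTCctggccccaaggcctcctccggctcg
Hspe1, chr1:55088056-55088085, plus strand, 92 to 63 bases before the start: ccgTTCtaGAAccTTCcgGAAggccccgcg
Hsph1, chr5:149636355-149636384, minus strand, 48 to 19 bases before the start: cattgggtagaatctTTCtcGAAggctcga
The Hspe1 stretch holds 4 alternating units and overlaps an annotated exon of Hspd1, the gene that runs the other way. Read on the minus strand, the same units are those found in the window of the Hspd1 start at position 55087932, from 144 bases before it. The window of the other Hspd1 start, at position 55088243, held 0 matches. The Hsph1 stretch lies before the start used here but overlaps an annotated exon of Hsph1 itself. The Hspa1a, Hspa1b and Hsph1 stretches each hold 1 pair of units (the 3 units of Hsph1 lie after its start and are not shown), and no match of these letters was found in the windows of Dnajb1. A match describes the letters only.

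Hspa1b had 0.244, 0.696 and 0.921 FPKM in vehicle and 0.470, 0.774 and 0.665 FPKM with DS-5272. Hspa1a had 0.0164, 0.0507 and 0.0278 FPKM in vehicle and 0.0329, 0.138 and 0.152 FPKM with DS-5272. The groups overlapped for both genes. Replicate 1 was the lowest of its group for both genes in both groups. Summed over the copies, the inducible HSP70 had 0.261, 0.747 and 0.949 FPKM in vehicle and 0.503, 0.912 and 0.817 FPKM with DS-5272.

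Hspa8, the constitutive HSP70 at chr9:40800984-40810087 (plus strand), was the most abundant of the 10 genes. It had 1506, 1452 and 1513 FPKM in vehicle and 1490, 1481 and 1156 FPKM with DS-5272. Only DS-5272 replicate 3 lay clearly below the other samples. Its log2 fold change was −0.12 (SE 0.15, 95% interval −0.49 to 0.24, limma adjusted p = 0.52). Without DS-5272 replicate 3 it was −0.0047. Annotated exons of the gene, pooled over its transcripts, overlap the small nucleolar RNAs Snord14c, Snord14d and Snord14e, whose fragments could count with it. The ratio of the inducible copies to Hspa8 within a sample was 0.000173, 0.000514 and 0.000627 in vehicle and 0.000337, 0.000616 and 0.000706 with DS-5272, and the log2 ratios differed by 0.47 (two-sided exact permutation p = 0.6, adjusted over 3 ratios 0.6). This difference turned to −0.11 without vehicle replicate 1.

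Hsp90ab1, the constitutive cytosolic HSP90 at chr17:45567775-45573271 (minus strand), fell with DS-5272. It had 1052, 1127 and 1139 FPKM in the vehicle samples and 808.9, 766.0 and 541.3 FPKM in the DS-5272 samples. All DS-5272 samples were below all vehicle samples, and the means were 1106 ± 47.3 and 705 ± 144 FPKM (SD, n = 3 each). On the log2 scale the change was −0.67 (SE 0.18, limma adjusted p = 0.0225). It remained −0.81 without replicate 1 of both groups (limma adjusted p = 0.033), but the limma adjusted p was 0.0528, 0.0809 and 0.0774 without vehicle replicate 1, 2 and 3 and 0.0656 with no filter on low values, in a range of 0.0105 to 0.0809 over all alternatives.

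Hsp90aa1, the stress-responsive cytosolic HSP90 at chr12:110690605-110702728 (minus strand), also fell. It had 359.3, 354.9 and 388.7 FPKM in vehicle and 268.2, 295.1 and 199.6 FPKM with DS-5272, again without overlap. The means were 368 ± 18.4 and 254 ± 49.2 FPKM (SD, n = 3 each), and the log2 fold change was −0.55 (SE 0.16, limma adjusted p = 0.0319). The limma adjusted p was 0.0749, 0.0857 and 0.106 without vehicle replicate 1, 2 and 3, 0.0571 with no filter and 0.0734 without replicate 1 of both groups, in a range of 0.022 to 0.106 over all alternatives. The ratio of Hsp90aa1 to Hsp90ab1 was 0.342, 0.315 and 0.341 in vehicle and 0.332, 0.385 and 0.369 with DS-5272, a difference of 0.12 in log2 ratio (two-sided exact permutation p = 0.3, adjusted over 3 ratios 0.45). The groups overlapped through DS-5272 replicate 1 only, and with 3 against 3 samples this p does not show that the proportion stayed the same.

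Hspd1 and Hspe1 encode HSP60 and HSP10, the 2 parts of the mitochondrial chaperonin. They lie head to head on chromosome 1, Hspd1 at chr1:55077835-55088243 on the minus strand and Hspe1 at chr1:55088132-55091307 on the plus strand, and they overlap by their exons. The annotation names 5 pseudogenes of Hspd1 and 6 of Hspe1, and 0 of them had FPKM values of their own. Whether fragments of these pseudogenes count with the 2 genes was not tested. Hspd1 had 157.7, 149.4 and 156.0 FPKM in vehicle and 86.31, 88.71 and 39.75 FPKM with DS-5272. This was the largest change among the tested heat shock genes, from 154 ± 4.39 to 71.6 ± 27.6 FPKM (SD, n = 3 each). On the log2 scale this was a change of −1.18 (SE 0.30, limma adjusted p = 0.0186). It was −0.81 without DS-5272 replicate 3, the lowest sample. The limma adjusted p was 0.0541, 0.0558 and 0.0539 without vehicle replicate 1, 2 and 3 and 0.051 without replicate 1 of both groups, in a range of 0.00336 to 0.0558 over all alternatives.

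Hspe1 had 106.1, 98.79 and 100.9 FPKM in vehicle and 97.98, 76.77 and 49.98 FPKM with DS-5272. The DS-5272 samples were all lower, but DS-5272 replicate 1 was within 1 FPKM of the lowest vehicle sample. The log2 fold change was −0.49 (SE 0.23, 95% interval −1.04 to 0.06, limma adjusted p = 0.122). It became −0.71 without DS-5272 replicate 1 (limma adjusted p = 0.0268) and −0.23 without DS-5272 replicate 3, with adjusted p from 0.0268 to 0.238 over all alternatives. Within a sample, Hspd1 over Hspe1 was 1.49, 1.51 and 1.55 in vehicle and 0.881, 1.16 and 0.795 with DS-5272. The ratio was thus lower in all 3 DS-5272 samples, by 0.70 in log2 ratio (group SDs 0.03 and 0.28), with a two-sided exact permutation p of 0.1, the smallest that 3 against 3 samples allow (adjusted over 3 ratios 0.3).

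**Figure D2:**
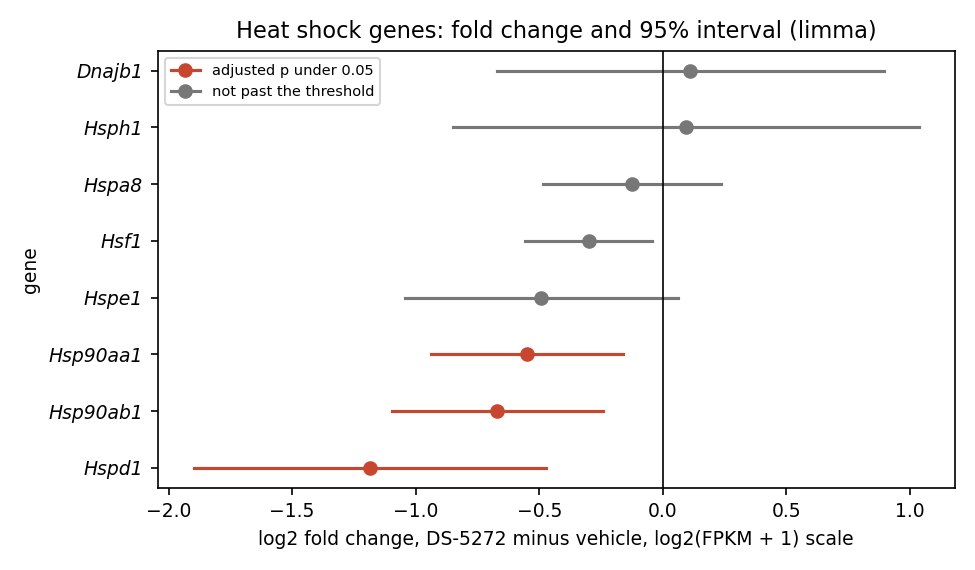
Log2 fold change of the 8 tested heat shock genes between DS-5272 and vehicle (n = 3 each), on the log2(FPKM + 1) scale, with 95% intervals from limma as horizontal lines. Hspd1 (−1.18), Hsp90ab1 (−0.67) and Hsp90aa1 (−0.55) in red passed the threshold, and the intervals of Hspe1, Hspa8, Hsph1 and Dnajb1 include 0.

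Dnajb1, the J-domain protein that works with cytosolic HSP70, lies at chr8:83608193-83612653 (plus strand). It had 21.84, 37.43 and 42.75 FPKM in vehicle and 23.09, 43.33 and 44.37 FPKM with DS-5272. Replicate 1 was the lowest sample of both groups, and DS-5272 replicates 2 and 3 lay above vehicle replicates 2 and 3. The log2 fold change was 0.11 (SE 0.33, 95% interval −0.67 to 0.89, limma adjusted p = 0.795), and it turned negative (−0.17) without vehicle replicate 1.

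Hsph1, the HSP110 exchange factor at chr5:149614287-149636376 (minus strand), had 21.28, 11.22 and 14.43 FPKM in vehicle and 28.42, 15.72 and 9.369 FPKM with DS-5272. Here replicate 1 was the highest sample of both groups, the reverse of Dnajb1. Between groups, the log2 fold change was 0.09 (SE 0.40, 95% interval −0.85 to 1.04, limma adjusted p = 0.857), and it turned negative (−0.29) without DS-5272 replicate 1. The wide intervals of Dnajb1 and Hsph1 do not show that these genes were the same in both groups.

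Replicate 1 was next compared with replicates 2 and 3 inside each group. A gene was counted as high or low where replicate 1 lay outside both other samples and its FPKM + 1 differed from their mean by at least 1.5 times. With 1 sample against 2 there is no test. In vehicle, 1 of the 8 heat shock genes was high (2.52% of all tested genes) and 1 was low (4.21% of all tested genes). With DS-5272, 2 were high (4.29%) and 1 was low (7.94%). Across both groups, Hsph1 was high in each (1.34% of all tested genes) and Dnajb1 was low in each (3.18%).

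Dnajb1 in replicate 1 stood at 0.556 times the mean of replicates 2 and 3 in vehicle and at 0.537 times with DS-5272. Hsph1 stood at 1.61 and 2.17 times. Hspe1 was counted as high with DS-5272 only, at 1.54 times against 1.06 times in vehicle, and this difference between the groups was not tested. Hspd1 (1.03 and 1.34 times), Hsp90ab1 (0.928 and 1.24), Hspa8 (1.02 and 1.13), Hsp90aa1 (0.966 and 1.08) and Hsf1 (1.07 and 1.05) stayed inside the limit in both groups. With DS-5272, the median ratio of replicate 1 to the mean of the other samples was 1.18 over the 8 genes, beside 0.951 for all tested genes. In vehicle it was 1.02, beside 0.995 for all tested genes. After rescaling to a common total, 4 genes in place of 2 were high in DS-5272 replicate 1. On the same measure, all 15 immediate early genes were low in both groups, with median ratios of 0.0794 in vehicle and 0.174 with DS-5272, and the 10 tested macrophage markers were all high in DS-5272 replicate 1 (median ratio 4.25). The part of these in the values of Dnajb1 and Hsph1 was not tested.

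Among 89 other tested chaperone genes, replicate 1 was low in both groups for 4 genes, beside 3.18% of all tested genes. They include Ier5, a gene that promotes HSF1 activity (0.228 and 0.192 times), the J-domain gene Dnajb4 (0.584 and 0.399) and Dnajb9, a J-domain gene of the endoplasmic reticulum (0.437 and 0.609). The polyubiquitin gene Ubb (0.52) and Hspa5 (0.411), the HSP70 of the endoplasmic reticulum, were low in vehicle replicate 1 and stood at 0.83 and 0.703 times with DS-5272. The high side held 0 genes in vehicle and 4 of 89 with DS-5272, a share near the 4.29% of all tested genes: Fkbp4 (1.67), Dnaja4 (1.79), Dnajc10 (1.57) and Bag2 (1.67).

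**Figure D3:**
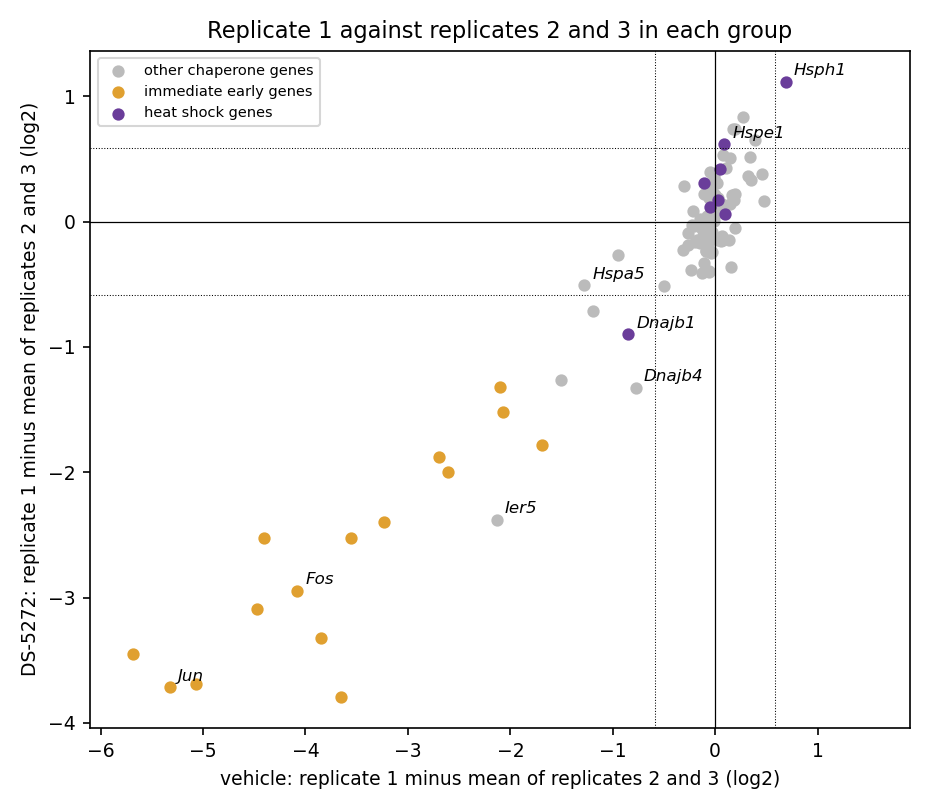
Each point is a tested gene, with the log2 difference of FPKM + 1 between replicate 1 and the mean of replicates 2 and 3 in vehicle on the horizontal axis and in DS-5272 on the vertical axis, and dotted lines at 1.5 times. Hsph1 lies at the upper right and Dnajb1 at the lower left, most heat shock genes (purple) and other chaperone genes (grey) lie near 0, and the 15 immediate early genes (orange) lie far to the lower left.

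The rest of the chaperone system was described from 10 lists with 103 genes, of which 89 were tested. With DS-5272, 13 of these were higher, 28 were lower and 48 did not pass the threshold, with a median log2 fold change of −0.13 beside 0.04 for all genes. Over all tested genes 24.2% were called higher and 22.0% lower, and the counts of each list below are to be read against these shares. The 5 of 17 higher J-domain genes and the 2 of 10 lower HSF1-inducible genes are near them. A fit that took the replicate number as a block called 20 higher and 30 lower. Rescaled to a common total, 3 were higher and 40 lower. Without vehicle replicate 1, 2 and 3 the higher genes numbered 8, 5 and 9 and the lower genes 21, 14 and 14. Of the 25 genes that are named from these lists for their size of change, 12 have an exon that overlaps another gene.

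**Figure D4:**
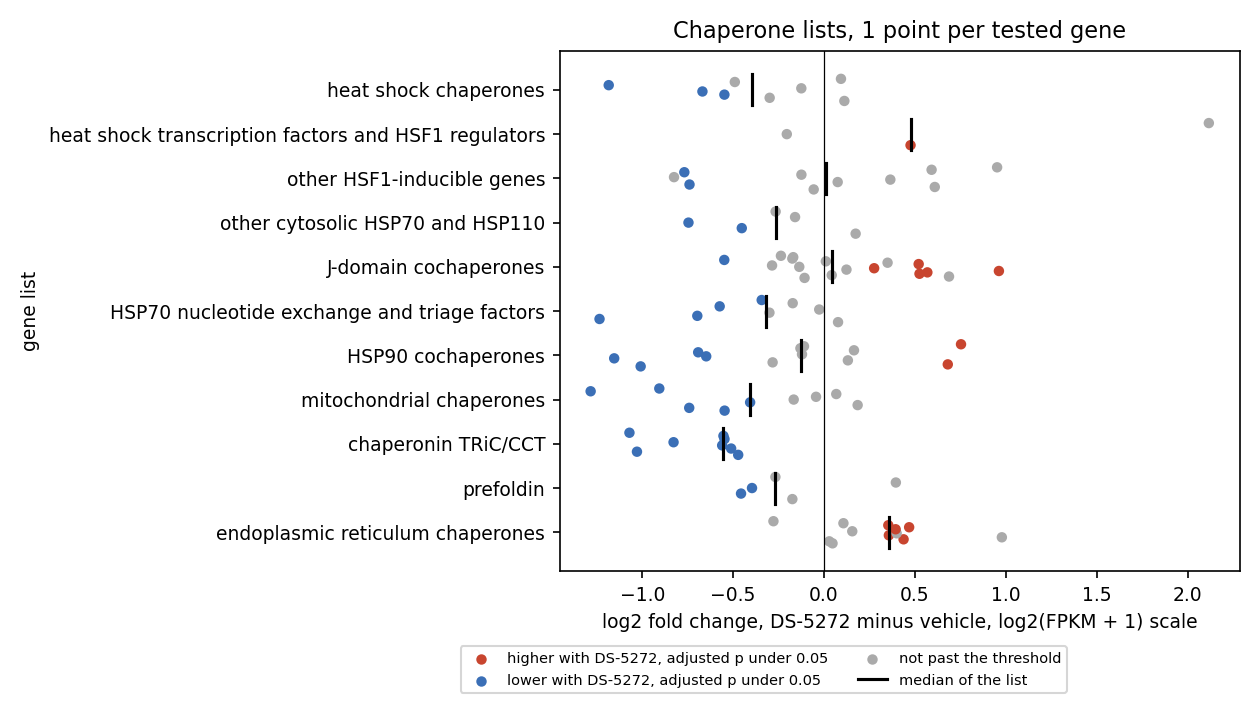
Log2 fold change between DS-5272 and vehicle (n = 3 each) on the log2(FPKM + 1) scale for each tested gene of the heat shock genes and of 10 further chaperone lists, with the list median as a black bar and points spread vertically only to separate them. All 8 genes of TRiC/CCT are blue (lower), while endoplasmic reticulum chaperones are the list with 5 red (higher) and 0 blue points, a split that became 0 and 1 after rescaling to a common total.

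The cytosolic chaperonin TRiC/CCT, which folds actin and tubulin, was lower as a whole: 8 of 8 tested subunits fell, with a median log2 fold change of −0.56. Tcp1 went from 152 ± 4.39 to 73.5 ± 19.7 FPKM (SD, n = 3 each), a log2 fold change of −1.07 (limma adjusted p = 0.007). Cct3 fell by 1.03 and Cct6a by 0.83 on the log2 scale (limma adjusted p = 0.0153 and 0.0146). All 8 were also called lower under each rescaling and with the block, but 2 and 4 were called without vehicle replicate 2 and 3 and 4 without replicate 1 of both groups. Of its helper prefoldin, 2 of 5 genes fell, Pfdn2 by 0.46 and Pfdn4 by 0.40 on the log2 scale (limma adjusted p = 0.0152 and 0.0324), and 0 without vehicle replicate 2 or 3. With the replicate block Pfdn5 was also called, as higher (limma adjusted p = 0.0155), so that prefoldin had 1 higher and 2 lower calls.

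Mitochondrial chaperones other than Hspd1 and Hspe1 were lower in 5 of 9 tested genes and higher in 0, with a median of −0.41. Hspa9, the mitochondrial HSP70, had 184.5, 187.7 and 176.8 FPKM in vehicle and 90.31, 99.06 and 46.17 FPKM with DS-5272. As with Hspd1, the DS-5272 samples were all lower and replicate 3 was the lowest. Hspa9 changed by −1.28 on the log2 scale (SE 0.28, limma adjusted p = 0.0111) and was called lower under all 16 alternatives. Trap1, the mitochondrial HSP90, and Dnaja3, a mitochondrial J-domain protein, fell by 0.91 and 0.74 (limma adjusted p = 0.00443 and 0.0123).

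HSP90 cochaperones went both ways, with 2 of 12 tested genes higher and 4 lower (5 with the replicate block). Fkbp5, an immunophilin of steroid receptor complexes, went from 52.0 ± 1.61 to 23.3 ± 6.16 FPKM (log2 fold change −1.15, limma adjusted p = 0.00486), and Aarsd1 fell by 1.01 (limma adjusted p = 0.00652). Unc45a, a myosin chaperone, rose from 10.1 ± 1.03 to 17.7 ± 2.51 FPKM (log2 fold change 0.75, limma adjusted p = 0.00615). The lower calls numbered 2 without vehicle replicate 1, 2 or 3 and without replicate 1 of both groups.

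Of 10 tested HSF1-inducible genes outside the 10 heat shock genes, 2 fell and 0 rose (1 at an unadjusted p under 0.05 in limma), with a median of 0.01. Stip1, which links HSP70 to HSP90, went from 112 ± 4.96 to 67.2 ± 18.8 FPKM (log2 fold change −0.77, limma adjusted p = 0.0251; from 0.0667 to 0.0737 without 1 vehicle replicate), and Cacybp fell by 0.74 (limma adjusted p = 0.014). Bag3, an HSP70 cochaperone of protein clearance, had 8.81, 12.68 and 13.03 FPKM in vehicle and 13.91, 18.05 and 22.56 FPKM with DS-5272. Every DS-5272 sample of Bag3 was above every vehicle sample, and its limma adjusted p was 0.0526 without and 0.00575 with the replicate block (log2 fold change 0.61). With the block, 2 genes of this list were higher and 3 lower. The small heat shock genes Hspb1, Hspb8 and Cryab were under 1 FPKM in every sample. Bag3, Hspb1, Hspb8, Cryab and the genes named for replicate 1 were chosen after their values were seen.

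Of 3 tested heat shock transcription factor and HSF1 regulator genes, Hsbp1, a binding protein of HSF1, rose from 45.1 ± 1.16 to 63.3 ± 6.37 FPKM (log2 fold change 0.48, limma adjusted p = 0.0112), which was 0.21 after rescaling to a common total (limma adjusted p = 0.14). Ier5 had 3.375, 16.91 and 19.53 FPKM in vehicle and 16.43, 63.53 and 115.8 FPKM with DS-5272. Its replicate 1 was lowest in both groups, and its limma adjusted p was 0.0758 without and 0.000609 with the replicate block (log2 fold change 2.12).

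Of other HSP70 and HSP110 genes, 2 of 5 tested fell, Hspa1l by 0.75 and Hspa14 by 0.45 on the log2 scale (limma adjusted p = 0.0235 and 0.02). Of these calls, 0 were left without vehicle replicate 1 and 1 without vehicle replicate 2, vehicle replicate 3, DS-5272 replicate 3 or replicate 1 of both groups. Levels of Hspa1l were low, at 1.676 to 2.912 FPKM in vehicle and 0.6036 to 1.249 FPKM with DS-5272. Its log2 fold change was −1.21 with a pseudocount of 0.1. HSP70 exchange and triage factors were lower in 4 of 8 (2 without vehicle replicate 3) and higher in 0, with a median of −0.32. Bag2, which holds back the ubiquitin ligase Stub1, went from 8.29 ± 0.660 to 3.15 ± 1.55 FPKM (log2 fold change −1.24, limma adjusted p = 0.0126), and Bag4 and Hspbp1 fell by 0.70 and 0.57 (limma adjusted p = 0.00557 and 0.0128). J-domain cochaperones had 5 higher (6 with the replicate block) and 1 lower call in 17 tested genes, and 1 higher and 4 lower after rescaling to a common total. The higher calls numbered 2 and 3 without vehicle replicate 2 and 3. Dnajb5 rose from 2.81 ± 0.475 to 6.40 ± 0.632 FPKM (log2 fold change 0.96, limma adjusted p = 0.00377), Dnajb2 rose by 0.57 (limma adjusted p = 0.00947) and Dnajc2, a ribosome-bound member, fell by 0.55 (limma adjusted p = 0.0154).

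Endoplasmic reticulum chaperones had 5 of 12 tested genes higher and 0 lower, with a median of 0.36. Pdia3, a protein disulfide isomerase of glycoproteins, went from 313 ± 30.9 to 432 ± 19.8 FPKM (log2 fold change 0.47, limma adjusted p = 0.0186), and Dnajb11 and Hyou1 rose by 0.44 and 0.39 (limma adjusted p = 0.0104 and 0.0368). After rescaling to a common total the list had 0 higher and 1 lower call with a median of 0.09, and after rescaling to the upper quartile or by median ratio 2 were higher. Leaving out vehicle replicate 1 or 2 left 1 higher call, leaving out vehicle replicate 3 or DS-5272 replicate 1 left 3, and with the replicate block 7 were higher. Hspa5, the main HSP70 of this compartment, had 360.6, 786.3 and 970.6 FPKM in vehicle and 572.9, 850.3 and 781.1 FPKM with DS-5272, overlapped between the groups and changed by 0.16 (limma adjusted p = 0.751).

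The expression pattern of the heat shock genes over the 6 samples was also set beside that of other genes, as a description over samples that share libraries and depth. For the sum of Hspa1a and Hspa1b, the highest Pearson correlations of log2(FPKM + 1) among 8244 genes that averaged 5 FPKM or more were those of Cd69 (r = 0.991), Hspa5 (0.990), Tmed2 (0.987), Sec11c (0.983) and 1810055G02Rik (0.980). For Hsp90ab1, among 8243 genes, they were those of 2410002F23Rik (0.996), Bsg (0.996), Polr1b (0.995), Abhd14a (0.995) and Zbtb12 (0.995). The first 5 genes were lowest in vehicle replicate 1, as the Hspa1 sum was, and with so many genes and only 6 samples high values of r occur readily.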

How the data were processed

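RNA-Seq profiles of 6 leukemia cell samples were used. Per the methods and the submitters' processing notes, the authors trimmed the paired reads with cutadapt 1.8.1, checked them with FastQC, aligned them to GRCm38 reference transcripts with TopHat2 2.1.1 and derived gene FPKM values with Cufflinks 2.2.1. The annotation release and the strand setting of the counting are not given in the sources used here. The deposited FPKM values are scaled to transcript length and library size and are not counts, so no count model was used, and depth was read only relatively from 717 genes under 0.15 FPKM. The table has 26632 lines with 26082 names. All columns belonged to the 6 samples, and 433 lines join several genes. Joined lines, which hold Dedd2, Dnaja1, Dnajc5, Dnajc9, Pdia4, Hoxa9 and Hoxa10, were not analysed as these genes.

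Groups follow the treatment label. DS-5272 and vehicle were compared with limma 3.58.1 in R 4.3.3 (two-sided, lmFit, then eBayes with trend). The fit took log2(FPKM + 1) of 11130 genes that averaged 1 FPKM or more, with Benjamini-Hochberg adjustment over these genes. The 1 that is added to FPKM understates changes of low genes. The script was tested on simulated data. Ratios within a sample were compared with an exact permutation test. Positions come from GENCODE for GRCm38 and promoter sequences from RefSeq (GRCm38.p6), read with Python 3.11.15, pandas 2.3.3 and scipy 1.17.1. The heat shock genes and all lists were chosen with earlier results of these data known. Genes named from lists are up to 3 per list with the largest change past the threshold, and for the Hspa1 sum and Hsp90ab1 the 5 genes with the highest correlation, with exceptions given where they are named. The values of 1 gene of the lists are not reported here.

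Replicate numbers run from 1 to 3 in both groups in the labels. Deviations from the group means correlated by 0.658, 0.209 and 0.43 between same-numbered samples and by −0.576 to 0.335 between others. This was taken as a pairing, read from the data since no shared batch is named. Vehicle replicate 2 correlated more with DS-5272 replicate 3 (0.335) than with DS-5272 replicate 2 (0.209). Deviations inside a group cancel out for each gene, so these correlations depend on each other. The values thus set replicate 1 apart but do not settle how replicates 2 and 3 pair, and results with the replicate block rest on this pairing. The fit without a block is reported. The alternatives covered the pseudocount (0.1), the filter (none, or 5 FPKM), 3 rescalings, the replicate block, eBayes without its trend, calls limited to log2 changes of 1 or more, each sample left out and, chosen after seeing the data, replicate 1 of both groups left out.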

Additional observations from a re-analysis of the deposited data

How the results depend on the processing

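The number of heat shock genes called lower with DS-5272, 3 in the reported fit, was 1 with no filter on low values, 1 with a required log2 fold change of at least 1, 1 without replicate 1 of both groups (chosen after seeing the data), and from 0 to 4 when 1 replicate was left out. The higher count was 0 under every alternative. With the replicate block the heat shock genes kept 0 higher and 3 lower calls, the chaperone lists had 20 higher calls against 13 unpaired and all genes 3367 higher and 2771 lower calls. A common total (TPM) gave 1706 higher calls over all genes and 3 in the chaperone lists, and 4 heat shock genes high in DS-5272 replicate 1 in place of 2. A log2 fold change of at least 1 left 978 higher and 621 lower calls over all genes and 0 higher and 6 lower in the chaperone lists. Without replicate 1 of both groups the chaperone lists had 18 lower calls. Leaving out 1 replicate gave 1654 to 2920 higher and 1404 to 2446 lower calls over all genes, lowest without vehicle replicate 2, and 5 to 13 higher and 14 to 28 lower in the chaperone lists. The uncalled change of Dnajb1 turned negative under TPM (−0.15) and ranged from −0.17 to 0.41 with 1 replicate left out: it was −0.17, −0.03 and −0.05 without vehicle replicate 1, DS-5272 replicate 2 and DS-5272 replicate 3. That of Hsph1 was −0.15 under TPM, −0.11 without vehicle replicate 2, −0.29 without DS-5272 replicate 1 and −0.06 without replicate 1 of both groups, and with 1 replicate left out it reached 0.46. The log2 ratio of Hspa1a and Hspa1b to Hspa8 ranged from −0.11 to 0.82 with 1 replicate left out, and was negative without vehicle replicate 1. The cause of these changes was not tested. With a replicate left out, fewer samples enter the fit. Depth is known only relatively, so no counting error is given for the low genes Hspa1a and Hspa1b.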
